A study of Mus musculus with 9 samples.

Results

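The genes described here were chosen to cover the SMN complex and the proteins it loads onto spliceosomal RNA, together with the splicing proteins that bind those particles. They were taken by name from the array's annotation: Smn1, every symbol beginning with Gemin, Snrp, Lsm, Sf3a, Sf3b or Prpf, and Ddx20, Strap, Prmt5, Clns1a and Coil. Taking genes by name also brought in Lsm genes that act outside the spliceosome, Lsm1, Lsm10 and Lsm14b among them. A gene was read at the probe set with the highest mean signal over the 9 arrays among those that name it alone, which gave 46 members of 12393 genes. Of these, 37 were in the brighter 50% of probe sets and were tested, and 9 were too dim. Gemin6, Gemin6-ps, Lsm5, Snrpa, Snrpd1 and Snrpd2 appear only on probe sets shared with another locus and are not counted, and Gemin4 and Gemin5 were not analysed here. The study used 9 Affymetrix arrays, each with the RNA of laser-cut lumbar motor neurons of 1 mouse killed at 13 days. The groups were 3 SMA mice that received NSC cells at postnatal day 1 (transplanted SMA), 3 SMA mice that had the same surgery with vehicle (SMA), and 3 wild-type mice given vehicle (wild type). NSC is read here as neural stem cell from what is known of the study. The labels call the SMA mice transgenic and give no allele, strain, sex or source of the transplanted cells. Transplanted SMA and SMA mice share the disease genotype, and all 3 groups share the surgery. Per the labels' protocols, each array holds cells of 1 animal. Transplanted SMA 3 read 366.1 for Xist, the RNA of the inactive X, and 84.8 for the Y-linked Eif2s3y, whereas every other array was high for one of these only (Eif2s3y at 49 or more on SMA 3 and the wild-type arrays, and at 0.5 or less on the rest). Both together would not be usual for the cells of 1 mouse alone, and the labels give no sex of the mice or of the transplanted cells. The source of this reading was not tested. Several results that use that array are also given without it, and the others are given with it only.

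Spinal muscular atrophy is caused by too little SMN protein, to which motor neurons are especially sensitive. In the cytoplasm, the SMN complex (SMN with the Gemin proteins and Strap) places a ring of Sm proteins on each U1, U2, U4 and U5 small nuclear RNA, after the chaperone Clns1a and the methyltransferase Prmt5 have prepared the Sm proteins. The finished particles, the snRNPs, pass through Cajal bodies, which coilin organises, and are joined by particle-specific proteins, by the SF3a and SF3b subunits of the U2 snRNP and by the Prpf proteins of the U4/U6.U5 tri-snRNP. The Lsm proteins form a related ring on U6 RNA, and another that works in mRNA decay.

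No member differed between groups past the test (limma on log2(signal + 16), Benjamini-Hochberg adjusted over 11313 probe sets). The smallest adjusted p of a member was 0.534 in SMA minus wild type, 0.933 in transplanted SMA minus SMA and 0.606 in transplanted SMA minus wild type. Over all probe sets tested, 0.0442% passed in SMA minus wild type and 0% in each of the other comparisons. At an unadjusted limma p under 0.05, 2 of 37 members (5.41%) stood out in each comparison, a share near that of all probe sets. In SMA minus wild type these were 2 higher and 0 lower, where 6.04% of all probe sets stood out (2.71% higher and 3.32% lower). They were 0 higher and 2 lower in transplanted SMA minus SMA, where 4.77% of all did (2.32% higher and 2.46% lower). They were 1 higher and 1 lower in transplanted SMA minus wild type, where 6.55% of all did (3.27% higher and 3.28% lower). The ranges of the groups did not overlap for 5 members in SMA minus wild type, all of them higher, beside 11.4% of all probe sets (5.31% higher and 6.06% lower). This held for 4 members in transplanted SMA minus SMA, all lower, beside 9.11% of all (4.43% higher and 4.68% lower). It held for 2 higher and 1 lower in transplanted SMA minus wild type, beside 14.1% of all (7.11% higher and 7.04% lower). The 95% interval of the difference lay inside a 2-fold change either way for 34, 34 and 32 of the 37 members in these comparisons, as it did for 88.0%, 87.7% and 87.2% of all probe sets. These intervals are per gene and on the log2(signal + 16) scale, which understates changes of dim genes. Without transplanted SMA 3, 0 members passed either comparison of the transplanted mice, with smallest adjusted p of 0.961 in transplanted SMA minus SMA and 0.483, for Sf3a2, in transplanted SMA minus wild type (limma). In cut tissue, fewer cells of a type and less RNA per cell cannot be told apart.

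Snrpa1, which encodes the U2-A′ protein of the U2 snRNP, had the smallest p of any member. Its brightest probe set read 189.1, 299.4 and 194.8 on the transplanted SMA arrays, 191, 294.9 and 250.4 on the SMA arrays, and 122.1, 138.3 and 125.9 on the wild-type arrays. Every array of the SMA genotype, transplanted or not, was above every wild-type array. The log2 difference was 0.83 (SE 0.22, 95% interval 0.36 to 1.31, limma adjusted p = 0.534) in SMA minus wild type. It was 0.72 (SE 0.22, limma adjusted p = 0.606) in transplanted SMA minus wild type, a comparison that uses the same wild-type arrays, and 0.81 without transplanted SMA 3. Transplanted SMA minus SMA gave -0.11 (SE 0.22), and these groups overlapped. The other Snrpa1 probe sets gave 0.71 (SE 0.23) and 0.53 (SE 0.18) in SMA minus wild type. In transplanted SMA minus wild type they gave 0.30 (SE 0.23) and 0.37 (SE 0.18), and in transplanted SMA minus SMA -0.42 (SE 0.23) and -0.16 (SE 0.18). The 3 probe sets thus had the same direction, but probe sets of a gene on the same arrays are not independent samples.

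**Figure D1:**
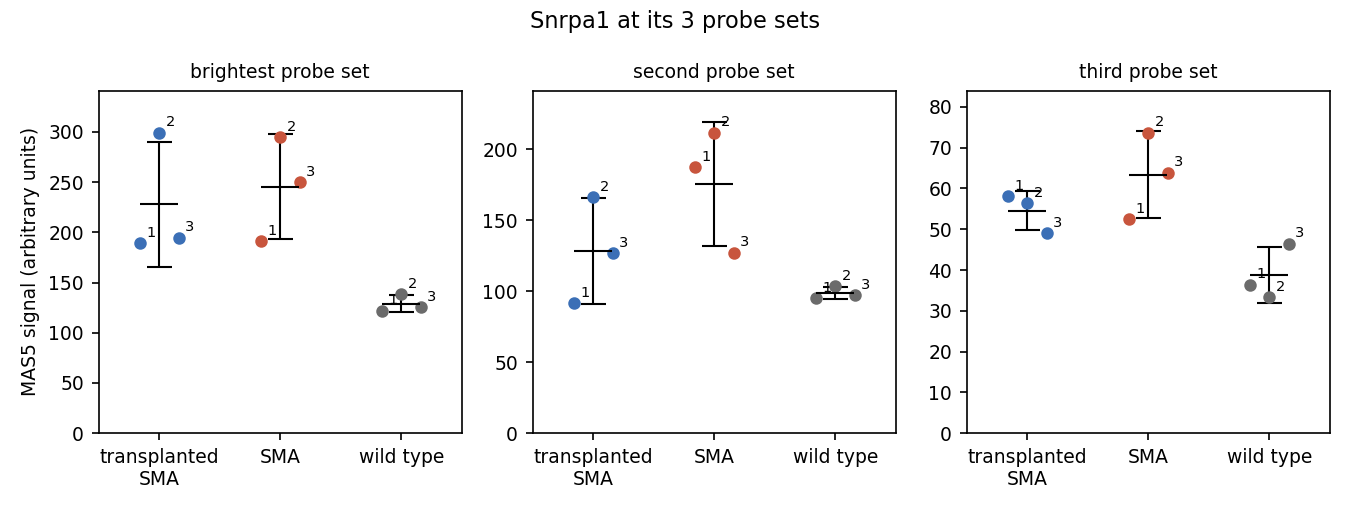
MAS5 signal of Snrpa1 (vertical axis, arbitrary units, from 0) at its 3 probe sets, brightest on the left, for transplanted SMA, SMA and wild type. Numbered points are arrays, and bars give mean ± SD of 3 arrays. At the brightest probe set the 6 arrays of the SMA genotype lie between 189.1 and 299.4 and the wild-type arrays between 122.1 and 138.3, while at the second probe set transplanted SMA 1 lies below the wild-type arrays.

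The U2-A′ protein sits on the U2 RNA as a pair with U2-B″, encoded by Snrpb2. At their brightest probe sets this pair differed in how the groups lay, though no difference passed the test. The second Snrpa1 probe set, with -0.42 (SE 0.23) in transplanted SMA minus SMA, was near Snrpb2 in that comparison. Snrpb2 read 93.7, 113.4 and 100.3 on the transplanted SMA arrays, 135.9, 155.6 and 143.5 on the SMA arrays, and 128.7, 146 and 104.7 on the wild-type arrays. All transplanted SMA arrays were below all SMA arrays, and both groups overlapped with the wild-type arrays. The difference was -0.44 (SE 0.17, 95% interval -0.82 to -0.07, limma adjusted p = 0.933) in transplanted SMA minus SMA, which was -0.43 without transplanted SMA 3, and 0.19 (SE 0.17) in SMA minus wild type. The other tested Snrpb2 probe set gave -0.23 (SE 0.19) in transplanted SMA minus SMA. The sequences before the starts of these genes are shown because Snrpa1 had the smallest p of the members in SMA minus wild type, Snrpb2 had it in transplanted SMA minus SMA, and the pair works as a unit on U2. They are the 250 bases upstream of each RefSeq start (GRCm38.p6, plus strand; Snrpa1 at chr7:66060086-66060335, Snrpb2 at chr2:143062819-143063068), 5′ to 3′, with capitals for any match to the motifs named after them.
Snrpa1: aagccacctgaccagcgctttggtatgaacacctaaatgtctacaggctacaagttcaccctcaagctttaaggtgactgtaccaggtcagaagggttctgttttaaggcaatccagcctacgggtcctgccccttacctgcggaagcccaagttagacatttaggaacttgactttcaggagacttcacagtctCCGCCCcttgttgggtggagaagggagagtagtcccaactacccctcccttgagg
Snrpb2: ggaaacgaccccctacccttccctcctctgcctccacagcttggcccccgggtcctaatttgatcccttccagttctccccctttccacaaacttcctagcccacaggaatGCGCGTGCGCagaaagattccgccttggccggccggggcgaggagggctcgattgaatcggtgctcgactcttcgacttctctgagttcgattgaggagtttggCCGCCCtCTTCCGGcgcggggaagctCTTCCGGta
Motifs were searched on both strands: the ETS motif CCGGAAG, the NRF1 motif, the Sp1 motif GGGCGG, the CCAAT box CCAAT and the TATA box TATAAA. The Snrpa1 window held 1 match, to the Sp1 motif, 55 to 50 bases before the start. The Snrpb2 window held 2 ETS matches, 28 to 22 and 9 to 3 bases before the start, 1 NRF1 match and 1 Sp1 match. No capital run belongs to more than 1 motif. Of 32851 promoter windows of 250 bases in the same RefSeq table, 6.91% held the ETS motif, 3.74% the NRF1 motif, 32.7% the Sp1 motif, 33.8% CCAAT and 12.4% TATAAA. A match is a description of letters and not a bound site.

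Smn1 was too dim to measure here. Its probe set read 2, 1.8 and 4.2 on the transplanted SMA arrays, 4, 1.3 and 3.1 on the SMA arrays, and 5.1, 3.7 and 1.8 on the wild-type arrays, and ranked at percentile 5.75. The wild-type arrays, whose cells have the gene, were as dim as the rest, so this probe set is no check of the genotype labels.

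The other measured proteins of the SMN complex showed no difference past the test. Ddx20 (Gemin3), the helicase of the complex, read 43.2, 50.2 and 7.9 on the transplanted SMA arrays, 51.3, 67.1 and 53 on the SMA arrays, and 31.9, 48.4 and 42.3 on the wild-type arrays. The SMA arrays were above all others, and transplanted SMA 3 stood far below every other array. Ddx20 gave 0.37 (SE 0.33) in SMA minus wild type and -0.68 (SE 0.33, limma adjusted p = 0.933) in transplanted SMA minus SMA, which was -0.22 without transplanted SMA 3. Strap, the unr-interacting protein that binds the complex, read 313.9, 319 and 400.8 on the transplanted SMA arrays, 496.7, 376.3 and 307.8 on the SMA arrays, and 383.2, 359 and 364.1 on the wild-type arrays. Gemin7, which pairs with Gemin6 in a Sm-like fold, read 81.3, 69.7 and 71.9 on the transplanted SMA arrays, 86.2, 56.4 and 92.7 on the SMA arrays, and 112.7, 64 and 43.9 on the wild-type arrays. The groups overlapped for Strap and for Gemin7, with 0.06 (SE 0.20) and 0.13 (SE 0.27) in SMA minus wild type.

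Gemin2, which grips the Sm proteins before they meet RNA, was too dim to test, at percentile 26.2. It read 11.6, 11.3 and 12.8 on the transplanted SMA arrays, 11.6, 15.5 and 16.1 on the SMA arrays, and 10, 8.1 and 8 on the wild-type arrays. All arrays of the SMA genotype were above all wild-type arrays, by a few units that lie below the added 16. Gemin8, which joins the Gemin6 and Gemin7 pair to SMN, was also too dim, with 35, 23.9 and 20.2 on the transplanted SMA arrays, 31.3, 26.3 and 23.9 on the SMA arrays, and 30.7, 21.7 and 14 on the wild-type arrays, and its groups overlapped.

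The genes that prepare Sm proteins and organise Cajal bodies overlapped between the groups in all 3 comparisons. Prmt5, which methylates arginines of Sm proteins, read 178.6, 221.1 and 124.3 on the transplanted SMA arrays, 299.1, 207.7 and 95.3 on the SMA arrays, and 253.8, 234.3 and 128.1 on the wild-type arrays. The array numbered 3 was the lowest in each group, and the spread inside the groups was wide (SE of the difference 0.37). Prmt5 gave -0.10 in SMA minus wild type (95% interval -0.93 to 0.72) and -0.09 in transplanted SMA minus SMA. Clns1a, the chaperone that holds Sm proteins for the SMN complex, read 1603.1, 1640.6 and 1131.7 on the transplanted SMA arrays, 1379, 1408.6 and 1592.9 on the SMA arrays, and 1830, 1543.5 and 1603 on the wild-type arrays. It gave -0.18 (SE 0.17) in SMA minus wild type, where its other tested probe sets gave -0.07 and 0.03. Coil, the scaffold of Cajal bodies, read 41.3, 57.7 and 36.4 on the transplanted SMA arrays, 48.8, 60.7 and 28.5 on the SMA arrays, and 41.9, 38.1 and 45.6 on the wild-type arrays, with a difference of 0.07 (SE 0.22) in SMA minus wild type.

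Of the Sm ring, 5 members had a probe set of their own and 4 were tested. Snrpb, which encodes SmB and SmB′, read 398.8, 391.9 and 346 on the transplanted SMA arrays, 478.2, 293.1 and 209.7 on the SMA arrays, and 249.1, 333.2 and 236.2 on the wild-type arrays. The transplanted SMA arrays were above all wild-type arrays, and the SMA arrays spanned both ranges. Snrpb gave 0.46 (SE 0.26, limma adjusted p = 0.814) in transplanted SMA minus wild type (0.53 without transplanted SMA 3) and 0.28 (SE 0.26) in transplanted SMA minus SMA, which was 0.01 without SMA 3. With Xist as a covariate, Snrpb gave -0.24 in transplanted SMA minus wild type. Snrpd3, Snrpe and Snrpg, for SmD3, SmE and SmG, gave -0.01 (SE 0.19), 0.14 (SE 0.18) and 0.17 (SE 0.16) in SMA minus wild type, and their groups overlapped in every comparison. The other tested probe sets of Snrpd3 and Snrpg gave 0.41 (SE 0.26) and -0.28 (SE 0.22) in SMA minus wild type. For Snrpg this is the opposite sign. Snrpn, which encodes the SmN protein of neurons and is imprinted, read 7.8, 11.8 and 21.5 on the transplanted SMA arrays, 24.6, 10.1 and 23.8 on the SMA arrays, and 8.1, 12.2 and 21.7 on the wild-type arrays at the only probe set that names it alone, which was too dim to test. Snrpc, the U1-C protein that helps U1 recognise the 5′ splice site, gave -0.16 (SE 0.19) in SMA minus wild type, and its groups overlapped.

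**Figure D2:**
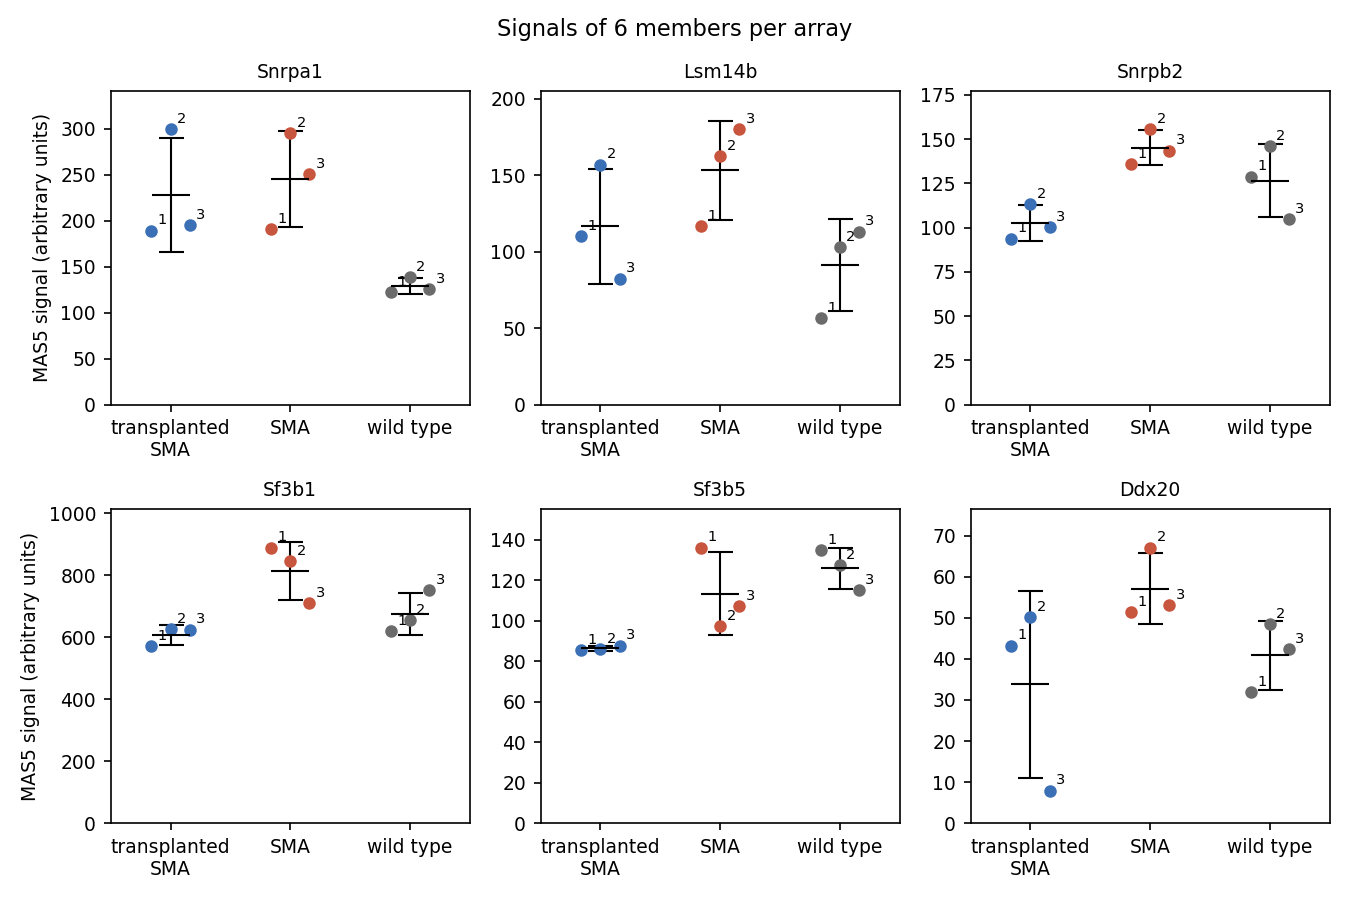
MAS5 signal (vertical axes, arbitrary units, from 0) for transplanted SMA, SMA and wild type, at the brightest probe set of each gene shown. These are Ddx20 and the 5 members with an unadjusted limma p under 0.05 there in any comparison (Snrpa1, Lsm14b, Snrpb2, Sf3b1 and Sf3b5). Numbered points are arrays, and bars give mean ± SD of 3 arrays. Snrpa1 is lowest on the wild-type arrays (122.1 to 138.3), Sf3b5 on the transplanted SMA arrays (85.5 to 87.7), and the low Ddx20 mean of transplanted SMA comes with the value of 7.9 on array 3.

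The SF3a and SF3b proteins bind the U2 snRNP and hold it at the branch point of the intron, and all 9 members were tested. Sf3b1, the largest SF3b subunit, which clamps the branch point, read 570.1, 626.6 and 624.2 on the transplanted SMA arrays, 889.1, 845 and 709.4 on the SMA arrays, and 619, 654.2 and 751.7 on the wild-type arrays. The transplanted SMA arrays were below all SMA arrays, and SMA 3 lay inside the wild-type range. Sf3b1 gave -0.41 (SE 0.16, limma adjusted p = 0.933) in transplanted SMA minus SMA, which was -0.43 without transplanted SMA 3, and 0.26 (SE 0.16) in SMA minus wild type. Its other tested probe set gave -0.41 (SE 0.18) in transplanted SMA minus SMA and -0.01 (SE 0.18) in SMA minus wild type, so the probe sets gave like values in the first of these only. In transplanted SMA minus wild type the brightest gave -0.15 (SE 0.16) and the other -0.42 (SE 0.18). At the latter, all transplanted SMA arrays were below all wild-type arrays.

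Sf3b5, the smallest SF3b subunit, read 85.5, 86.1 and 87.7 on the transplanted SMA arrays, 136.2, 97.2 and 107.1 on the SMA arrays, and 135.1, 127.7 and 115.1 on the wild-type arrays. All transplanted SMA arrays were below all arrays of the other groups. The difference was -0.47 (SE 0.17, 95% interval -0.83 to -0.10, limma adjusted p = 0.699) in transplanted SMA minus wild type and -0.33 (SE 0.17) in transplanted SMA minus SMA. Without transplanted SMA 3 these were -0.48 and -0.34, and its other probe set was too dim to test.

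Sf3b3, a scaffold subunit built of propeller domains, read 199.1, 117.4 and 150.8 on the transplanted SMA arrays, 163, 147.2 and 156 on the SMA arrays, and 107.7, 116.8 and 118.6 on the wild-type arrays. The SMA arrays were above all wild-type arrays, while transplanted SMA 2 fell within the wild-type range. Sf3b3 gave 0.39 (SE 0.19, limma adjusted p = 0.842) in SMA minus wild type and 0.37 (SE 0.19) in transplanted SMA minus wild type, which was 0.20 without transplanted SMA 1. Sf3a2, a subunit of SF3a, read 491.5, 421 and 225.6 on the transplanted SMA arrays, 283.9, 393.3 and 356 on the SMA arrays, and 268.7, 263.2 and 258.6 on the wild-type arrays. It gave 0.35 (SE 0.26) in SMA minus wild type and 0.43 (SE 0.26) in transplanted SMA minus wild type. Transplanted SMA 3 was below every wild-type array, and the latter value without it was 0.75 (limma adjusted p = 0.483). The other tested Sf3a2 probe set gave 0.04 (SE 0.18) and 0.40 (SE 0.18) in these comparisons. There transplanted SMA 3 read 57.7, above the wild-type arrays (36.8 to 40.9).

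Sf3b4, which contacts the RNA upstream of the branch point, read 667.8, 454.1 and 414.9 on the transplanted SMA arrays, 613.4, 301.3 and 321.4 on the SMA arrays, and 311.4, 524.6 and 316.8 on the wild-type arrays. Each group held a high array, and the difference in transplanted SMA minus SMA was 0.35 (SE 0.30), with 0.15 to 0.66 when 1 array was left out (the lowest without transplanted SMA 1 and the highest without SMA 1). The other tested Sf3b4 probe set gave 0.06 (SE 0.43) in that comparison, and its highest array was SMA 3 (490.8). It gave 0.57 (SE 0.43) in SMA minus wild type, where the brightest gave 0.06 (SE 0.30). In SMA minus wild type, 6 of the 9 SF3 members had a positive difference at their brightest probe sets (median 0.26, range -0.18 to 0.39). In transplanted SMA minus SMA, 6 had a negative one (median -0.02, range -0.41 to 0.35), and 1 of 9, Sf3b1, had an unadjusted limma p under 0.05 and was lower (2.46% of all probe sets). Sf3b2, another SF3b subunit, varied least of the tested members at their brightest probe sets, between 200.4 and 238.2 on all 9 arrays. Its next brightest probe set varied more, from 134.7 on transplanted SMA 1 to 279.3 on SMA 2.

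The Lsm members gave small differences except for Lsm14b. Lsm14b, a relative of the P-body protein Lsm14a, read 110.3, 156.9 and 82.4 on the transplanted SMA arrays, 116.8, 162.2 and 180.1 on the SMA arrays, and 56.8, 103.2 and 113.1 on the wild-type arrays. The SMA arrays were above all wild-type arrays, by a narrow gap between SMA 1 and wild type 3. The difference was 0.68 (SE 0.27, 95% interval 0.08 to 1.29, limma adjusted p = 0.784) in SMA minus wild type, and 0.43 without wild type 1. Lsm3, part of the U6 ring and of the decay ring, read 339.5, 316.1 and 296.5 on the transplanted SMA arrays, 267.2, 307.6 and 294.1 on the SMA arrays, and 322.4, 295.4 and 334.5 on the wild-type arrays, and gave -0.13 (SE 0.15) in SMA minus wild type. Lsm8, which belongs to the nuclear U6 ring, Lsm1, its counterpart in the decay ring, and Lsm10, of the U7 particle that trims histone mRNA, gave -0.02 (SE 0.21), -0.08 (SE 0.21) and -0.10 (SE 0.17) in SMA minus wild type. Of the 10 Lsm members, 7 were tested, and Lsm2, Lsm12 and Lsm14a were too dim.

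Among the Prpf members, of which 8 of 10 were tested, no unadjusted limma p was under 0.05 in any comparison at their brightest probe sets. In transplanted SMA minus wild type the brightest Prpf4b probe set gave -0.11 (SE 0.18). The other tested Prpf4b probe sets gave -0.49 (SE 0.37), 0.02 (SE 0.16) and -0.41 (SE 0.17), and only the last fell under that limit. There the transplanted SMA arrays (37.4 to 50.3) were below all wild-type arrays (55.2 to 64). Prpf8, the U5 protein at the heart of the spliceosome, read 227.1, 211.8 and 141.1 on the transplanted SMA arrays, 353.9, 355 and 148.1 on the SMA arrays, and 236.5, 285.6 and 190.6 on the wild-type arrays. SMA 1 and SMA 2 were the highest arrays, and the array numbered 3 was the lowest of each group. Prpf8 gave 0.17 (SE 0.32) in SMA minus wild type and -0.46 (SE 0.32) in transplanted SMA minus SMA. Prpf31, a U4/U6 protein affected in a form of retinitis pigmentosa in humans, read 167.3, 131.7 and 120.7 on the transplanted SMA arrays, 151, 106.9 and 110.5 on the SMA arrays, and 146.3, 152.4 and 120.3 on the wild-type arrays. It gave -0.17 (SE 0.19) in SMA minus wild type, with -0.31 (without SMA 1) to -0.09 (without SMA 2) when 1 array was left out. In transplanted SMA minus SMA it gave 0.17 (SE 0.19), with 0.05 (without transplanted SMA 1) to 0.31 (without SMA 1).

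Prpf38b, a relative of a tri-snRNP protein of yeast, read 102.1, 143.6 and 108.8 on the transplanted SMA arrays, 114.9, 143.6 and 161.1 on the SMA arrays, and 96.7, 184.2 and 160.6 on the wild-type arrays, with -0.25 (SE 0.24) in transplanted SMA minus wild type, which was -0.50 without wild type 1. The other tested Prpf38b probe set had the opposite sign in that comparison, at 0.23 (SE 0.24). In transplanted SMA minus SMA the brightest gave -0.22 (SE 0.24) and the other 0.29 (SE 0.24). Prpf19, a ubiquitin ligase that activates the spliceosome, gave 0.32 (SE 0.27) in SMA minus wild type. In transplanted SMA minus SMA, 7 of the 8 tested Prpf members had a negative difference at their brightest probe sets (median -0.22, range -0.46 to 0.17). Prpf39, which is linked to the U1 snRNP, lay just below the filter at percentile 47.2, and Ddx20, at 54.7, just above it. It read 17.1, 29.6 and 19.7 on the transplanted SMA arrays, 41.5, 43.5 and 50 on the SMA arrays, and 22.6, 24.6 and 28.9 on the wild-type arrays, and its SMA arrays were above all the others. Its other probe sets, also too dim to test, did not set the SMA arrays above all others. At one they read 20.7, 6.5 and 13.5 and overlapped with the other groups. At the other they read 10.9, 16.6 and 22.5, above the transplanted SMA arrays but overlapping with wild type (6.3 to 18.4). Prpf39 lay outside the rule for named genes and was chosen after its values were seen.

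**Figure D3:**
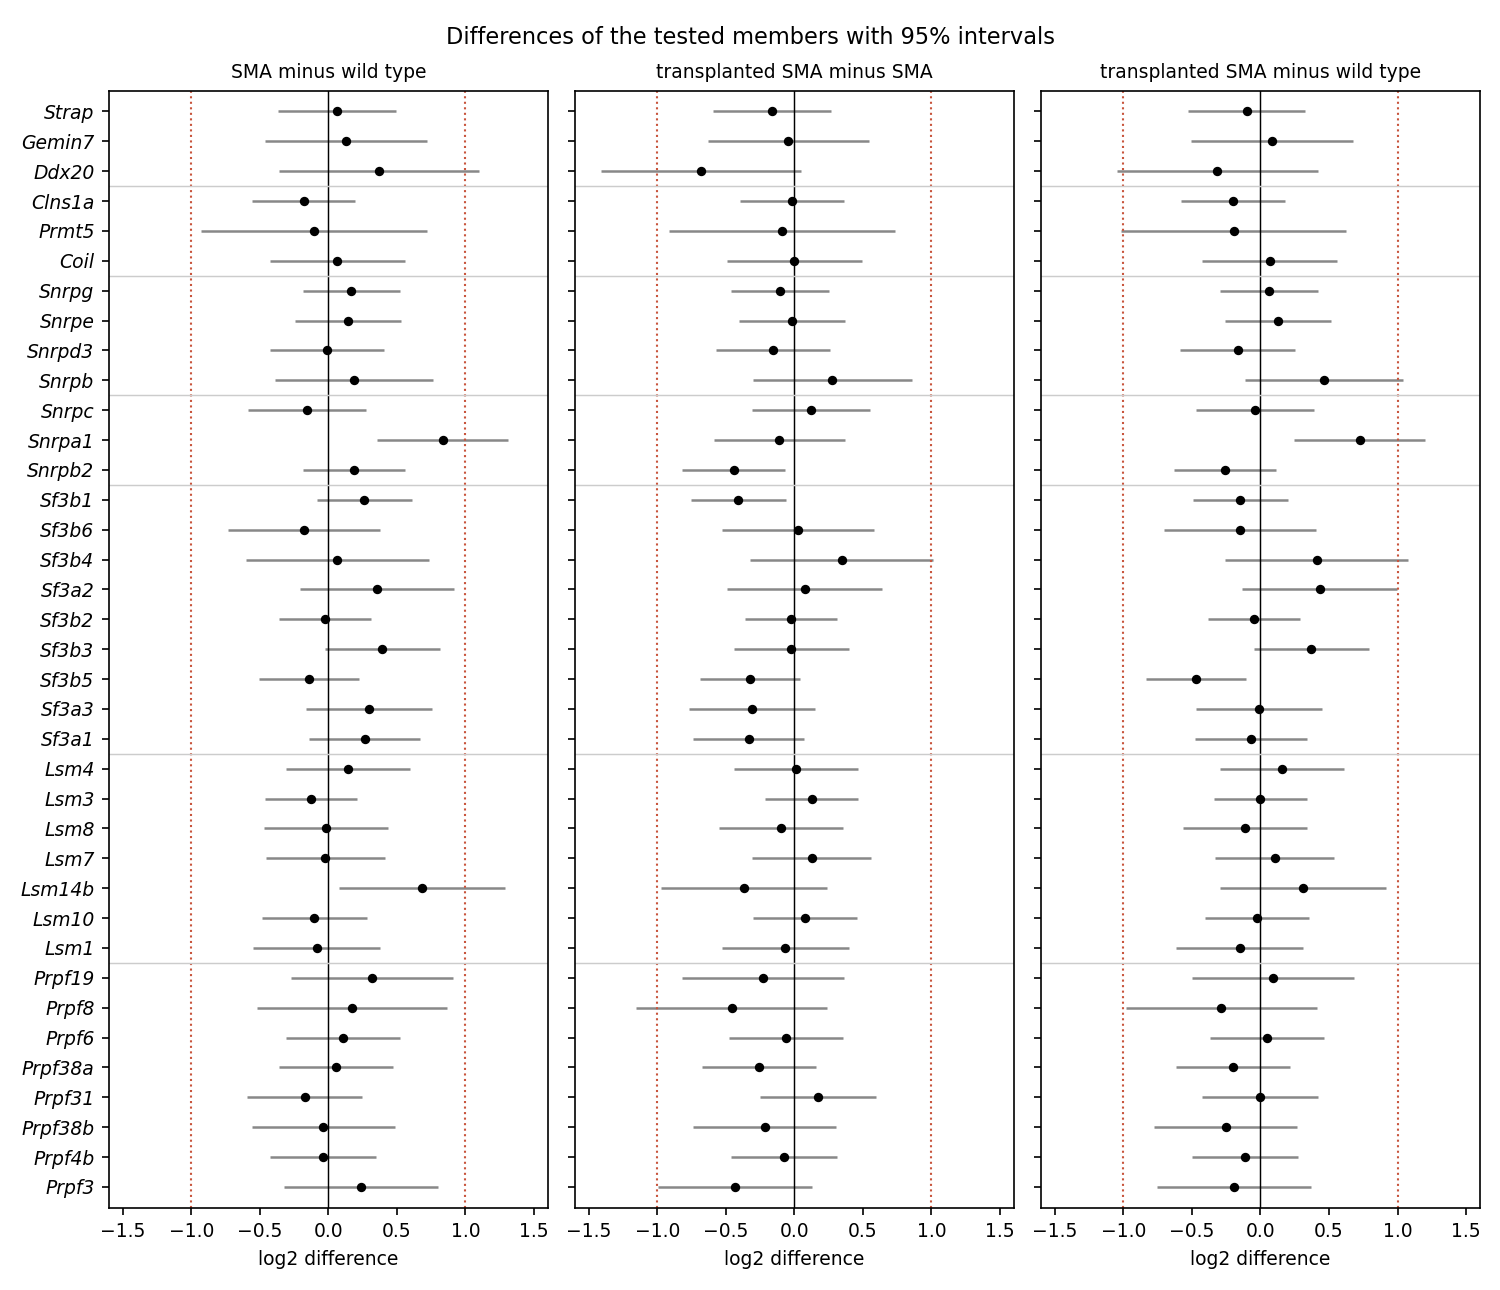
Log2 differences (horizontal axes, on the log2(signal + 16) scale) of the 37 tested members in the 3 comparisons, in order of role from the SMN complex at the top to the Prpf proteins at the bottom. Points are limma estimates, lines their 95% intervals, and dotted lines a 2-fold change either way. Intervals of Snrpa1 lie above 0 in both comparisons with wild type, and none passes the test after adjustment.

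Read as a list, the members were centred near 0 in every comparison. In SMA minus wild type, 22 of 37 differences were positive (59.5%, against 51% of all probe sets), with a median of 0.07 beside 0.01 over all probe sets. In transplanted SMA minus SMA, 11 were positive and 26 negative (50.3% of all positive; median -0.07, beside 0.00 over all), and in transplanted SMA minus wild type 14 were positive and 23 negative (48.5% of all positive; median -0.04, beside -0.01). Without transplanted SMA 3 the median was -0.02 in transplanted SMA minus SMA and 0.05, of the other sign, in transplanted SMA minus wild type. The median of transplanted SMA minus SMA was 0.01 without SMA 1 and SMA 2 and 0.03 with muscle transcripts as a covariate. The SMA arrays enter the first and the second of these comparisons with opposite sign, so their values are not independent. The SMA median rested on SMA 1 and SMA 2: the SMA minus wild type median was 0.19 without SMA 3 and -0.10 without SMA 1 and SMA 2, and it was -0.15 with Xist as a covariate. Of the SMA arrays, only SMA 1 and SMA 2 were high for Xist and for muscle transcripts, so these settings are not separate checks. A list of 48 other genes of snRNP assembly and splicing had 40 with a probe set of their own, 35 of them tested, and 0 passed in any comparison (limma adjusted p). At an unadjusted p under 0.05, there was 1 of 35 higher in SMA minus wild type (2.86%, against 6.04% of all probe sets in either direction), Sart1 of the tri-snRNP at 0.35 (SE 0.16), and 1 lower in transplanted SMA minus SMA (2.86%, against 4.77% of all), Snrnp70 of the U1 snRNP at -0.60 (SE 0.22). In transplanted SMA minus wild type 3 were lower (8.57%, against 6.55% of all), the U5 GTPase Eftud2 at -0.47 (SE 0.15), the snRNA export adaptor Phax at -0.48 (SE 0.20) and the exportin Xpo1 at -0.45 (SE 0.16). The medians of this list were -0.01, -0.09 and -0.09 in the 3 comparisons.

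The members' levels also differed between arrays of the same group. Relative to the wild-type mean of each gene, the median over the 37 members was 0.09, 0.01 and -0.14 on the transplanted SMA arrays, 0.21, 0.11 and -0.10 on the SMA arrays, and 0.00, 0.09 and -0.05 on the wild-type arrays, while the median over all tested probe sets stayed between -0.02 and 0.03. The array numbered 3 was the lowest of its group each time. For 10 of the 37 members (27%) it was the lowest in all 3 groups, which held for 11.4% of all tested probe sets: Lsm4, Lsm7, Lsm10, Prmt5, Prpf3, Prpf8, Prpf38a, Sf3a3, Snrpb and Snrpd3. This pattern was found after the values were seen. Transplanted SMA 3 was the lowest array for 10 members and the highest for 0, and SMA 2 and SMA 1 were the highest for 11 and 9. Over the 9 arrays the members' SD of log2 values had a median of 0.23 (0.08 for Sf3b2 to 0.52 for Ddx20), against 0.27 for all tested probe sets.

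**Figure D4:**
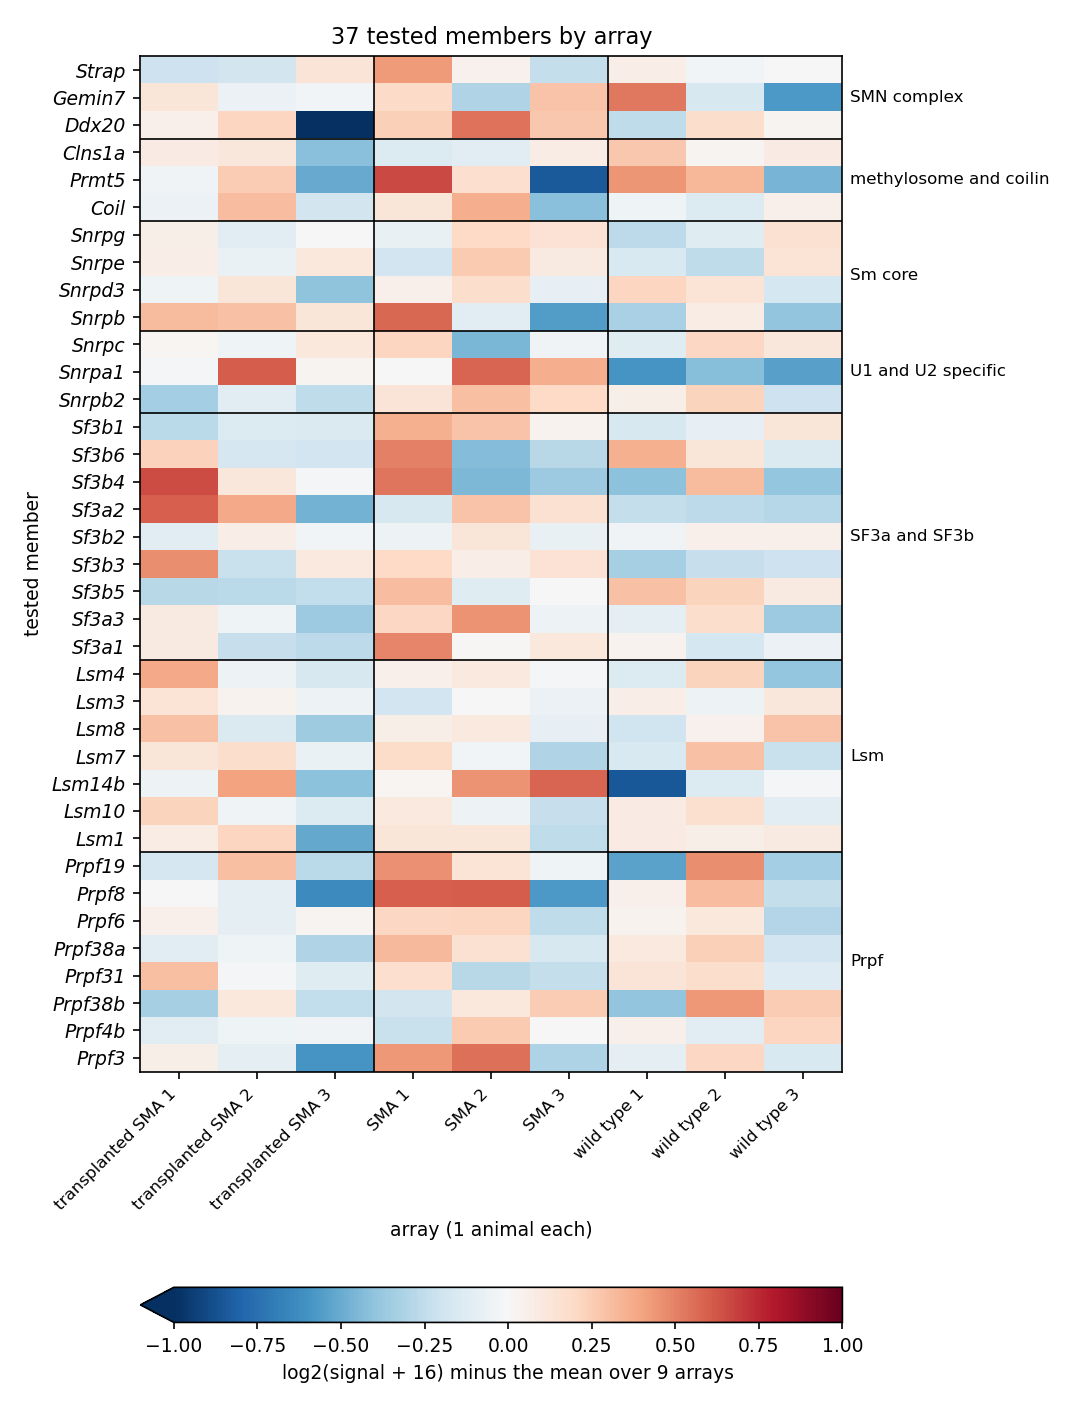
Log2(signal + 16) of each tested member (rows, grouped by role) minus its own mean over the 9 arrays, for each array (columns). Red is above and blue below that mean, and the scale ends at 1 either way, which only Ddx20 on transplanted SMA 3 passes. Snrpa1 is blue on the 3 wild-type arrays, and Prmt5, Prpf8 and Prpf3 are blue on the array numbered 3 of each group.

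Other measures moved with these arrays, and their part in the members' values was not tested. The summed signal of 3 oligodendrocyte markers (Mbp, Mobp and Mog) was highest on the array numbered 3 in each group, with 23514 on transplanted SMA 3, 22420 on SMA 3 and 19458 on wild type 3, against 11323 to 17894 on the other arrays. The 3 astrocyte markers (Aqp4, Gfap and Slc1a2) summed to 3636, 4507 and 2675 on these arrays, against 1165 to 2381 on the others. The 4 neuron markers (Nefl, Nefm, Stmn2 and Snap25) summed lowest on the array numbered 3 in each group. The sums were 1303 to 3241 on the transplanted SMA arrays, 1070 to 2235 on the SMA arrays, and 1668 to 2018 on the wild-type arrays. Single markers differed from these sums. Among the wild-type arrays, Aqp4 and Slc1a2 were highest on wild type 1, Mog on wild type 2, and the neuron marker Snap25 on wild type 3 (367.1). Among the SMA arrays, Nefl was lowest on SMA 2. Of the 6 motor neuron markers, Slc18a3, Slc5a7, Prph, Isl1 and Mnx1 were too dim to test and none was at 0, and the 6 summed to 104.4 to 225.5 on the transplanted SMA arrays, 70.9 to 151.1 on the SMA arrays, and 73.1 to 132.7 on the wild-type arrays, so the defining markers of the labelled cell type were weak in all groups. Isl2, the only motor neuron marker not too dim, read 119.8, 83.7 and 62.6 on the transplanted SMA arrays. These were above all SMA arrays (34.7 to 58) and all wild-type arrays (26.4 to 59.6). The 4 microglia markers (C1qa, C1qb, Csf1r and Cx3cr1) summed to 3977 to 7292 on the transplanted SMA arrays, 6721 to 8922 on the SMA arrays, and 4626 to 9110 on the wild-type arrays. The erythroid markers Alas2 and Hba-a1 summed to 412.4 to 819.7 on the transplanted SMA arrays and 595.6 to 693.1 on the SMA arrays. On the wild-type arrays they summed to 1113 to 2260. The sums were nearly all Alas2, which read 1107 to 2237.8 on the wild-type arrays. Alas2 separated those arrays from the rest as Snrpa1 did, in the opposite direction. Hba-a1 was dim and did not, with 5.7, 6.1 and 21.8 on the wild-type arrays and 1.9 to 15.4 on the rest. The 4 muscle markers (Acta1, Tnnc2, Ckm and Mylpf) summed to 2026 on SMA 1 and to 2601 on SMA 2, while no other array passed 78.1. Xist read 366.1 to 739.6 on the transplanted SMA arrays, 600.7 and 879.5 on SMA 1 and SMA 2 but 47.6 on SMA 3, and 23.5 to 32.9 on the wild-type arrays. With Xist as a covariate, Snrpa1 gave 0.79 (SE 0.34, limma adjusted p = 0.583) in SMA minus wild type and 0.67 (SE 0.40, limma adjusted p = 0.527) in transplanted SMA minus wild type.

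**Figure D5:**
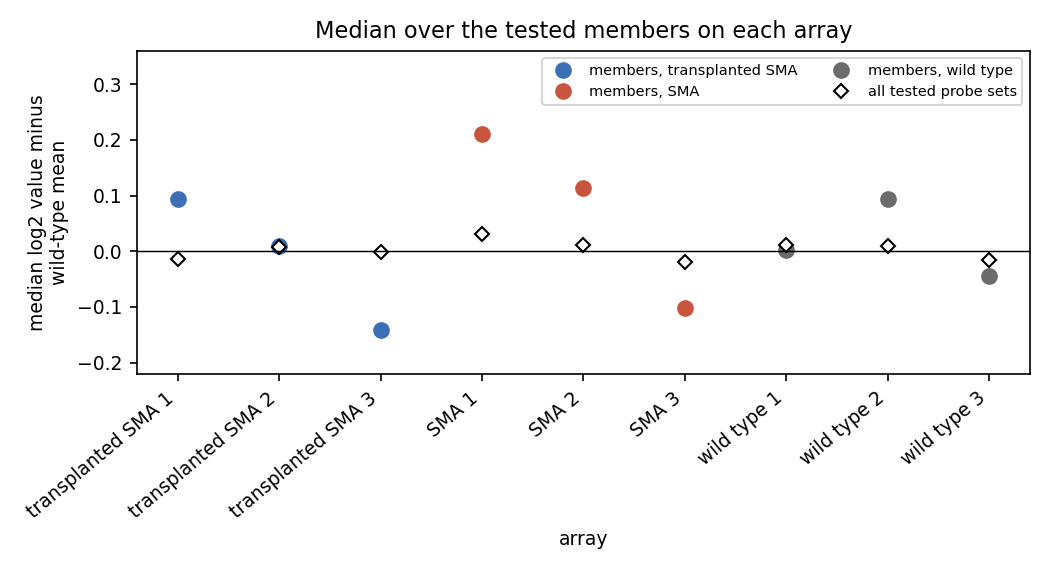
Median over the 37 tested members of the log2(signal + 16) value minus the gene's wild-type mean (vertical axis) on each array (horizontal axis), as filled points, beside the same over all 11313 tested probe sets, as open diamonds. The members' medians run from -0.14 on transplanted SMA 3 to 0.21 on SMA 1, and the array numbered 3 is the lowest in each group.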

How the data were processed

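The authors deposited MAS5 signals, a linear intensity for each probe set in arbitrary units. The submitters' processing notes name MAS5 but no version. The values show that every array was scaled to the same target, with a trimmed mean of 100 each. Per the labels' protocols, about 100 cells were collected per cap from 16 µm sections of fixed cord, and the RNA went through a double amplification.

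From these values, 64 control probe sets were left out of 22690, 16 was added, and log2 was taken. Of the rest, 20380 named 1 gene, 691 several and 1555 were not listed in the annotation. The brighter 50% by the mean over all arrays were fitted with limma 3.58.1 in R 4.3.3 (1 mean per group, eBayes with trend, 6 residual degrees of freedom, two-sided, Benjamini-Hochberg threshold 0.05). The fit was tested on simulated data. Named genes were the SMN complex and Cajal body members, Snrpn, Snrpb, Sf3b1, Prpf8 and, per comparison, members with an unadjusted p under 0.05, filled up to 4 per direction. The members and lists were chosen with earlier results of these data known. Gene-level p-values measure the spread between 3 arrays per group, labelled as 1 animal each, and this number of arrays limits the precision. Alternatives covered scaling, pseudocount, filter, variance model, arrays left out, the array number as a block and covariates.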

Additional observations from a re-analysis of the deposited data

How the results depend on the processing

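No member passed the threshold under any of 25 alternatives in any comparison. The smallest adjusted p of a member was 0.179 with array weights in SMA minus wild type, 0.354 without wild type 3 and SMA 3 in transplanted SMA minus SMA, and 0.179 with Xist as a covariate in transplanted SMA minus wild type. Snrpa1 stayed between 0.67 and 0.99 in SMA minus wild type and between 0.52 and 0.83 in transplanted SMA minus wild type over 24 alternatives each. The members' median in SMA minus wild type (0.07) was 0.016 (without SMA 1) to 0.19 (without SMA 3) when each array was left out in turn, -0.10 without SMA 1 and SMA 2, -0.15 with Xist and -0.11 with muscle transcripts as a covariate; in transplanted SMA minus SMA (-0.07) it was -0.13 to -0.02 with an array left out (without transplanted SMA 1 and 3), -0.16 with Xist and 0.03 with muscle transcripts; in transplanted SMA minus wild type (-0.04) it was -0.09 to 0.05 with an array left out (without transplanted SMA 1 and 3) and -0.24 with Xist. Muscle transcripts were high on SMA 1 and SMA 2 only, and of the SMA arrays Xist was high on the same ones. Leaving out these arrays and using these covariates are therefore not separate checks, and what they share cannot be told apart. With Xist, Snrpb gave -0.24 and Prpf38b, at its brightest probe set, 0.0026 in transplanted SMA minus wild type. These signs are the reverse of those under the other settings, and the cause was not tested. Over all probe sets, the 5 that passed in SMA minus wild type became 2 to 13 with an array left out (2 without wild type 1, wild type 2 or SMA 1, 3 without wild type 3, 9 without SMA 2, 13 without SMA 3), 2 among the brighter 25%, 11 without wild type 3 and SMA 3, and 0 without SMA 1 and SMA 2, with Xist or with muscle transcripts. The 0 of transplanted SMA minus SMA (540 at an unadjusted p under 0.05) became 0 to 4 with an array left out (4 without SMA 3), 7 without wild type 3 and SMA 3, and 3 with Xist. The 0 of transplanted SMA minus wild type (741) became 0 to 7 with an array left out (7 without SMA 3), 2 with a pseudocount of 1, 8 with array weights, 8 with only the 6 arrays compared, 8 without SMA 1 and SMA 2, and 6 each without wild type 3 and SMA 3 and with muscle transcripts. At an unadjusted p under 0.05, centring on array medians gave 203 higher and 554 lower in SMA minus wild type (307 and 376 as reported) and 220 and 613 in transplanted SMA minus wild type (370 and 371), while the members' calls at that level kept their numbers. The array numbers were not taken as pairs: 6 of 9 same-number pairs had deviations correlated over 0.1 (-0.08 to 0.45), and 6 of 9 arrays correlated best with their own number. With the number as a replicate block, 5, 0 and 0 probe sets passed in the 3 comparisons, and 0 members; 5 members (13.5%), against 2, then had an unadjusted p under 0.05 in transplanted SMA minus SMA, beside 780 of all probe sets (6.89%), against 540.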

Other observations

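Probe sets that name a member together with another gene were left out of the counts, and their values belong to no single gene. Snurf and Snrpn, which are encoded by 1 transcript, shared 3 bright probe sets. At the brightest of them the signal was 2679.7, 2765.6 and 1460.2 on the transplanted SMA arrays, 3445.6, 821.5 and 1416.6 on the SMA arrays, and 1900.6, 2282.6 and 1770.8 on the wild-type arrays. The SMA arrays held both the highest and the lowest value. These 3 probe sets gave -0.31, -0.33 and -0.05 in SMA minus wild type. The probe set naming Snrpd2 (SmD2) and a predicted gene read 672.1, 566.3 and 450.8 on the transplanted SMA arrays, 594.3, 580.3 and 587.1 on the SMA arrays, and 457.7, 462.4 and 466.1 on the wild-type arrays. Its SMA arrays were above all wild-type arrays, with a difference of 0.34 in SMA minus wild type and a smallest limma adjusted p of 0.847 over the 3 comparisons. The probe sets shared by Gemin6, Lsm5, Snrpa and Snrpd1 with other loci gave 0.14, 0.06, -0.27 and 0.12 in SMA minus wild type.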
